A study of Mus musculus with 3 samples.

Results

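The 10 genes described here are tied to the tumour suppressor p53 and to growth arrest, and were followed in mouse cells of 3 genotypes. They are Cdkn1a, Btg2, Trp53inp1, Gadd45a, Gadd45b, Gadd45g, Mdm2, Ccng1, Ccng2 and Hbp1. They were taken as a named list, and their probes were found on the arrays through the transcript accession of each probe. All 10 genes were found, with 13 probes and 22 spots, of 20659 genes named on the array with 27234 probes. The cells are described by their labels as mouse embryonic stem cells (mESCs) grown under standard conditions, labelled wildtype, LIFR KO and gp130 KO. LIFR is the receptor subunit that binds the cytokine LIF, and gp130, the product of Il6st, is the signalling subunit that it shares with other receptors of the interleukin 6 family. No strain, age, treatment or clone number is given in the sources used here, nor is how the genes were knocked out. Each genotype was measured on 1 single-colour Agilent array of total RNA, so there were no replicates and no test was made. A ratio compares 2 arrays, and whether a further culture of the same genotype would give it was not tested.

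p53 is a transcription factor that is held at a low level by the ubiquitin ligase Mdm2 and accumulates after DNA damage and other stress. It then switches on genes that halt the cell cycle, repair DNA or kill the cell, among them Cdkn1a, Mdm2 itself, Ccng1, Btg2, Trp53inp1 and Gadd45a. Several of these genes also answer to other signals, and Ccng2 and Hbp1 are known as targets of FOXO factors, which are active when growth factor signalling through PI3K and AKT is low. Mouse embryonic stem cells are known for a short first gap phase of the cell cycle and for low expression of several inhibitors of cyclin-dependent kinases.

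A probe's signal is the brightness of its spot in the scanner's intensity units, printed here before any scaling between arrays. For a ratio each array was first divided by its 75th percentile, which lay at 664 on the wildtype, 750 on the LIFR KO and 652 on the gp130 KO array. The ratio is given as a fold or on the log2 scale, with the error that the scanner software assigns to a spot (a standard error of about 0.20 on the log2 scale for bright probes). The scatter of repeated spots on an array was smaller, with a 95% half-width of 0.14 to 0.15 for a ratio of single spots. Of 39429 probes, 64.4% were well above background on the wildtype, 58.3% on the LIFR KO and 65.5% on the gp130 KO array. On the LIFR KO array 252 spots lay in a stray signal that raised the local background, and none of the 22 spots of the 10 genes did, with local backgrounds between 16.5 and 30.5 over the 3 arrays. None of these spots was marked as an outlier. The targeted genes gave 34.9, 29.97 and 34.7 (Lifr) and 329, 369 and 299 (Il6st) on the wildtype, LIFR KO and gp130 KO arrays. After scaling, Il6st had log2 ratios of -0.01 and -0.11 to wildtype, within the scatter of spots. Lifr had -0.39 on the LIFR KO array, beyond that scatter, and 0.02 on the gp130 KO array. Its probe was dim but well above background on all 3 arrays. Lifr has 3 probes, and only the brightest was read here. Where the probes of both genes lie relative to the deleted parts is not given in the sources used here. Of 15 embryonic stem cell markers 11 were well above background on all 3 arrays, while Sox2, Zfp42, Dppa3 and Fgf4 were so on none. All 12 epithelial markers and all 5 blood cell markers on the array were so too, and passing this threshold therefore does not tell cell types apart. Pou5f1, a defining embryonic stem cell marker, was dim at 31.2, 22.7 and 20.3 on the wildtype, LIFR KO and gp130 KO arrays. Krt18, the brightest epithelial marker, gave 39533, 50636 and 41452. Klf4, the brightest embryonic stem cell marker, gave 673, 845 and 632. Pou5f1 and the markers above background on no array thus bear out the labelled cell type poorly. The other measured embryonic stem cell markers were brighter than Pou5f1, so the markers are mixed and do not settle the cell type.

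On the LIFR KO array 6 of the 10 genes were at least 2-fold higher than on the wildtype array, namely Gadd45g, Trp53inp1, Ccng2, Gadd45b, Hbp1 and Gadd45a, and none was 2-fold lower. The same threshold was passed upward by 2.87% and downward by 1.62% of all 14545 genes compared, or 1.93% and 1.35% of the 13131 genes that, like these 10, were well above background on both arrays. On the gp130 KO array 4 of the 10, Ccng2, Hbp1, Trp53inp1 and Gadd45a, passed 2-fold upward and none downward, against 1.61% and 0.784% of 14917 genes compared, or 0.553% and 0.468% of the 14094 above background on both arrays. The list was drawn up with results of these arrays known, so these shares are a description and not evidence about the list. Its median log2 ratio was 1.28 on the LIFR KO and 0.17 on the gp130 KO array, where the medians of all genes compared were -0.03 and 0.03. Both comparisons share the wildtype array.

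**Figure D1:**
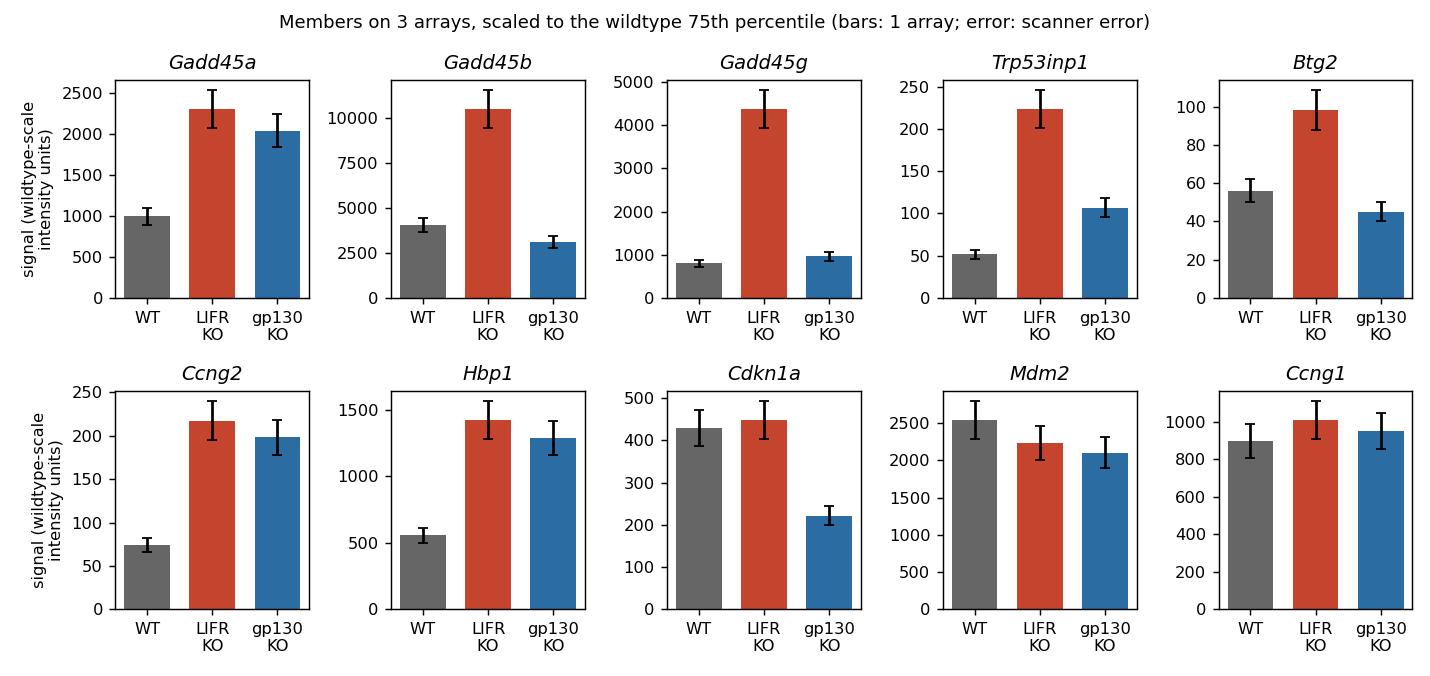
Signal of each gene's brightest probe on the wildtype (WT), LIFR KO and gp130 KO arrays, in intensity units scaled to the wildtype 75th percentile, with the axis of each panel starting at 0. Each bar is 1 array and its error bar the scanner's error. Gadd45a, Ccng2 and Hbp1 stand higher on both knockout arrays, Gadd45b and Gadd45g on the LIFR KO array, and Cdkn1a is lower on the gp130 KO array.

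The 3 GADD45 genes encode small stress-induced proteins that bind Cdk1, PCNA and p21, and activate the kinase Map3k4 upstream of p38 and JNK. Gadd45a is the member known as a p53 target, whereas Gadd45b and Gadd45g are known as rapid response genes to cytokines. Their signals moved differently. Gadd45g had the largest ratio of the 10 genes, its wildtype signal being 799.6, its LIFR KO signal 4931 and its gp130 KO signal 945. It was 5.46-fold higher on the LIFR KO array (log2 2.45, scanner error 0.20), which placed it 15th from the top of the 13131 genes above background on both arrays. On the gp130 KO array its log2 ratio was 0.27, with a scanner error of 0.20. Gadd45b had signals of 4059, 11866 and 3059 on the same arrays, a 2.59-fold higher value on the LIFR KO array (log2 1.37) and a log2 ratio of -0.38 on the gp130 KO array. The high value of both genes was thus on the LIFR KO array alone of the 3. Gadd45a was high on both knockout arrays, with signals of 995, 2601 and 2003. It was 2.31-fold higher on the LIFR KO and 2.05-fold higher on the gp130 KO array (log2 1.21 and 1.04, scanner error 0.20 each), the latter close to the 2-fold threshold. With the normexp background correction, Gadd45a and Gadd45b came to log2 0.85 and 0.92 on the LIFR KO array, under 2-fold. When that correction was fitted without the stray signal they came to 1.18 and 1.43. On the gp130 KO array Gadd45a came to 0.97 with either fit, under 2-fold.

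Set against each other directly, the gp130 KO array had 4.53-fold less Gadd45g (log2 -2.18) and 3.37-fold less Gadd45b (log2 -1.75) than the LIFR KO array. These were the 18th and 36th lowest ratios of 13162 genes above background on both of these arrays. Gadd45a had a log2 ratio of -0.17 there, within the scanner error of 0.20.

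The 250 bases before the start of the 3 GADD45 genes are shown because these relatives had unlike values. They come from RefSeq on build GRCm38.p6, run 5′ to 3′ along the gene, and carry in capitals the matches on either strand to 3 motifs, the TATA box (TATAAA), the CCAAT box (CCAAT) and the E-box (CACGTG). A position is that of a match's first base, with -1 just before the start.
Gadd45b, chr10:80929841-80930090, plus strand: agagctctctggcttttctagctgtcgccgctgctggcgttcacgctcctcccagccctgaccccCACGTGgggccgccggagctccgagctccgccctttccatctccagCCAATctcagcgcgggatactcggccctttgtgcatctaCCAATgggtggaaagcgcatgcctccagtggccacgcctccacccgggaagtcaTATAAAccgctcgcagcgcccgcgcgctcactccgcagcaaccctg
Gadd45g, chr13:51846425-51846674, plus strand: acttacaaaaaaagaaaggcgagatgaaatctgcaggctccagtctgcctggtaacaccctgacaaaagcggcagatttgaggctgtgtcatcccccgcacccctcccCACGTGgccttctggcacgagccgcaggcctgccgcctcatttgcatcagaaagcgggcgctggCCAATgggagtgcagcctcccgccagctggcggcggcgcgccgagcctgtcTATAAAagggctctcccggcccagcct
Gadd45a, chr6:67037408-67037657, minus strand: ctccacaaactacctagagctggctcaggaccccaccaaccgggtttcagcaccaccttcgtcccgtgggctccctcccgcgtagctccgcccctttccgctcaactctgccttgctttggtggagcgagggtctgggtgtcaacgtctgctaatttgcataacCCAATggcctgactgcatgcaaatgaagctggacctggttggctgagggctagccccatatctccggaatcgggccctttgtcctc
Gadd45b and Gadd45g each held a TATA box, at -46 and -27, and an E-box, at -185 and -142, together with CCAAT boxes. Gadd45a held neither and had a single CCAAT box, at -86. Of 32851 mouse promoter windows of the same length, 12.4% held TATAAA, 6.02% CACGTG and 33.8% CCAAT. The promoter table gave 10 windows for 9 of the 10 genes, Cdkn1a having 2, and Trp53inp1 was not searched. None of these windows held a STAT site in the form TTCCNGGAA or an AP-1 site in the form TGANTCA, which 0.913% and 6.75% of all windows held. A match describes letters and is no evidence that a factor binds.

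Trp53inp1 encodes a p53-induced nuclear protein that takes part in autophagy and cell death, and its 2 probes, both assigned to the same transcript, did not give the same picture. The brighter probe gave 51.7 for wildtype, 252 for LIFR KO and 105 for gp130 KO. Its value was 4.32-fold higher on the LIFR KO array (log2 2.11, scanner error 0.21), 25th from the top, and 2.07-fold higher on the gp130 KO array (log2 1.05, scanner error 0.21). The other probe gave 36.9, 42.0 and 40.7, all well above background, with log2 ratios of 0.01 and 0.17 and scanner errors of 0.28 and 0.25. The ratios of the brighter probe are therefore not shared by every probe of the gene. With the median over both probes the log2 ratios came to 1.06 and 0.61, and -0.45 between the knockouts, and with normexp fitted without the stray signal the brighter probe came to 1.34 and 0.58, so the 2-fold difference on the gp130 KO array rests on the choice of probe and correction. Trp53inp2, a related gene that also acts in autophagy, had log2 ratios of 0.53 and 0.55.

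Ccng2 and Hbp1, both known for restraining growth, were higher on both knockout arrays. Ccng2 encodes cyclin G2, an unusual cyclin found in cells that leave the cycle, and had signals of 74.3, 246 and 194 on the wildtype, LIFR KO and gp130 KO arrays. It was 2.93-fold higher on the LIFR KO and 2.67-fold higher on the gp130 KO array (log2 1.55 and 1.41, scanner error 0.21 each), and stood 24th from the top of the 14094 genes above background on the wildtype and gp130 KO arrays. Hbp1, a transcription repressor that restrains entry into S phase, had signals of 558, 1603 and 1264 with its brighter probe. It was 2.55-fold higher on the LIFR KO array (log2 1.35) and 2.31-fold higher on the gp130 KO array (log2 1.21), with a scanner error of 0.20 each. Its other probe, assigned to another transcript accession, was dim at 17.1, 36.5 and 25.1 and had log2 ratios of 0.92 and 0.58 with scanner errors of 0.31 and 0.30, above 0 on both arrays but under 2-fold. With normexp, which adds an offset that compresses the ratios of dim probes, Ccng2 came to log2 0.92 on the gp130 KO array. With the median over its probes Hbp1 came to 0.90 there. Between the gp130 KO and LIFR KO arrays Ccng2 and Hbp1 had log2 ratios of -0.13 and -0.14, smaller than the scanner error. With normexp fitted on all spots Ccng2 had 1.55 on the LIFR KO array and -0.63 between the knockouts. That fit includes the stray signal of the LIFR KO array. It put 22.1% of 14760 genes at least 2-fold lower on the gp130 KO than on the LIFR KO array. When normexp was fitted without the stray signal, the Ccng2 ratio between the knockouts was -0.08. On the LIFR KO array it was then 1.0 over wildtype, at the 2-fold threshold and the lowest of all settings. The value of -0.63 is therefore not read as a difference between the knockouts.

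**Figure D2:**
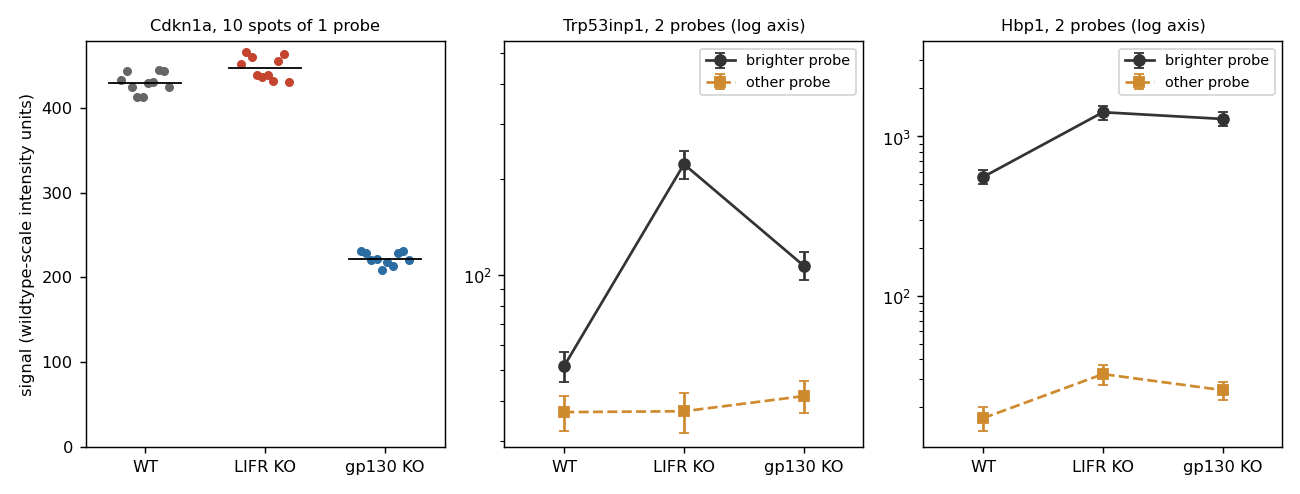
Left, the 10 spots of the Cdkn1a probe on each array with their mean as a line, on an axis that starts at 0. Middle and right, both probes of Trp53inp1 and of Hbp1 with the scanner error, on log axes, all in intensity units scaled to the wildtype 75th percentile. The 10 Cdkn1a spots of the gp130 KO array lie below all spots of the other arrays, and the other Trp53inp1 probe does not follow the brighter one.

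The promoter window of Hbp1 is shown for its FOXO motif (GTAAACA), which starts at -149 and is printed in capitals beside 3 CCAAT boxes. Only Hbp1 and Mdm2 of the 9 genes searched held that motif, against 3.17% of all windows.
Hbp1, chr12:31950246-31950495, minus strand: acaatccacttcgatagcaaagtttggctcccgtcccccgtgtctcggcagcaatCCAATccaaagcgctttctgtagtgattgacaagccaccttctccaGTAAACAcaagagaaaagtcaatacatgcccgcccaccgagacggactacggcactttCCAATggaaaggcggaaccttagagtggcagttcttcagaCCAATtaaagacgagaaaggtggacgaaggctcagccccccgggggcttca
The Ccng2 window held no match to this motif in the 250 bases searched.

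Cdkn1a encodes p21, the inhibitor of cyclin-dependent kinases through which p53 arrests the cell cycle. Its main probe is printed 10 times on the array, so the scatter of its spots could be read. Signals over the 10 spots, before scaling, ran from 412 to 445 with a median of 429.9 on the wildtype array, from 486 to 526 with a median of 503 on the LIFR KO array, and from 204 to 226 with a median of 217 on the gp130 KO array. The gp130 KO spots did not overlap with those of either other array, scaled or not. Relative to wildtype the mean was 1.94-fold lower on the gp130 KO array (log2 -0.95, with an SD of 0.034 over the 10 spots), just short of 2-fold and the 76th lowest of 14094 genes. On the LIFR KO array its log2 ratio was 0.06, with an SD of 0.036. The scanner error of both ratios was 0.20, no smaller than for genes with a single spot. With either normexp fit the ratio on the gp130 KO array came to -0.79. Repeated spots hold the same RNA, so this spread says nothing of the spread between cultures. The other Cdkn1a probe did not reach the background threshold in any genotype, at 5.85, 5.98 and 4.29.

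The table of promoters holds 2 starts for Cdkn1a, and the upstream window is shown because it holds the core of a p53 site on both sides, CATG repeated after 6 bases, starting at -48 and printed in capitals with the bases between. Of all windows 0.490% held this repeat, and of the 9 genes searched only Cdkn1a did. Which of the 2 starts each probe reads was not determined.
Cdkn1a, chr17:29090729-29090978, plus strand: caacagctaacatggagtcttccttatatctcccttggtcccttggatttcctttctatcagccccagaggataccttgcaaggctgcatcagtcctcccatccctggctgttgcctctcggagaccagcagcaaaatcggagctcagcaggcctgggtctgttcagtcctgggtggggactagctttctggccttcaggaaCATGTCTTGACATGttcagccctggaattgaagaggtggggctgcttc

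Btg2, an antiproliferative gene of the BTG/TOB family and a known p53 target, lay higher on the LIFR KO array and slightly lower on the gp130 KO array. Its signals were 56.1 on the wildtype, 111 on the LIFR KO and 44.3 on the gp130 KO array. The log2 ratios were 0.81 and -0.31, each with a scanner error of 0.22, and neither passed 2-fold. Between the knockouts it was 2.18-fold lower on the gp130 KO array (log2 -1.12). Its value moved with the correction, from log2 0.42 with normexp fitted without the stray signal to 1.51 with normexp fitted on all spots. The promoter window of Btg2 is shown as the only one of the 10 windows with a full cAMP response element (TGACGTCA), at -166, which 1.55% of all windows held. The 2 CCAAT boxes are in capitals too.
Btg2, chr1:134079156-134079405, minus strand: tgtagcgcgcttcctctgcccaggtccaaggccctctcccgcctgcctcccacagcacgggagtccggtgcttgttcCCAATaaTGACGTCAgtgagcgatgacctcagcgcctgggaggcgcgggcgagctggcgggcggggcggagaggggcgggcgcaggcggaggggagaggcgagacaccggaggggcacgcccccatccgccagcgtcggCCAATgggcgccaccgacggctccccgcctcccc

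Mdm2 and Ccng1, which are among the genes most regularly switched on by p53, stayed under 2-fold between the arrays. Mdm2, the ubiquitin ligase that restrains p53, had signals of 2535, 2519 and 2060.3 on the wildtype, LIFR KO and gp130 KO arrays and log2 ratios of -0.18 and -0.27. Ccng1, which encodes cyclin G1, had signals of 899, 1139 and 932 and log2 ratios of 0.17 and 0.08. The scanner error was 0.20 for each of these ratios, and with normexp fitted on all spots the ratios on the LIFR KO array were -0.52 for Mdm2 and -0.04 for Ccng1, so no direction is given for Ccng1. When normexp was fitted without the stray signal, these ratios were -0.19 and 0.09. The ratios without normexp lay within 2 scanner errors of 0.

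**Figure D3:**
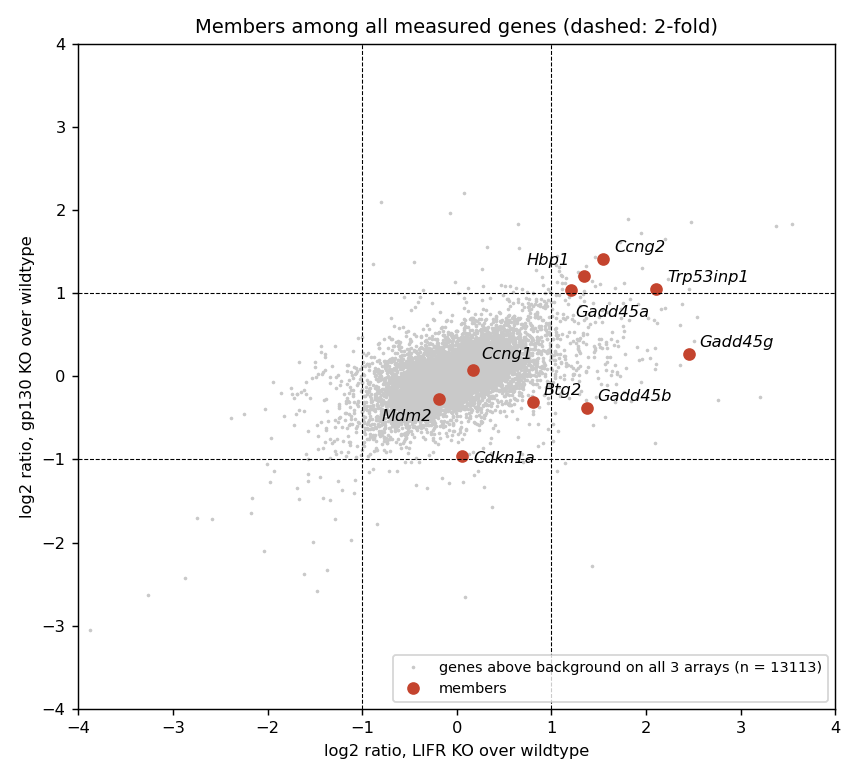
Log2 ratio of the LIFR KO array (horizontal) and of the gp130 KO array (vertical) over the shared wildtype array for 13113 genes above background on all 3 arrays, in grey, with the 10 genes in red and dashed lines at 2-fold. The axes end at 4, which leaves 6 grey genes outside. Because both axes divide by the same wildtype array, the slope of the grey cloud is not a result. Ccng2, Hbp1, Trp53inp1 and Gadd45a lie beyond 2-fold on both axes, Gadd45g and Gadd45b on the horizontal axis alone.

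Between the 2 knockouts, 5 of the 10 genes were at least 2-fold lower on the gp130 KO than on the LIFR KO array and none was higher, against 2.05% and 1.29% of 14760 genes compared, or 1.4% and 0.942% of the 13162 above background on both. They were Gadd45g, Gadd45b, Btg2, Trp53inp1 at 2.09-fold (log2 -1.06) and Cdkn1a at 2.01-fold (log2 -1.01). The remaining 5 had log2 ratios between -0.17 and -0.09. For Trp53inp1 this holds for the brighter probe alone, as the other had a log2 ratio of 0.16 (scanner error 0.27). The median of the list was -0.59, beside 0.05 for all genes. With normexp fitted without the stray signal only Gadd45g and Gadd45b stayed past 2-fold.

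A wider list of 30 known p53 target genes was read for the same arrays, without the 10 genes above. It had 28 genes with a probe, 25 of them well above background in every genotype. Of all genes above background on both arrays, 1.93% were at least 2-fold higher and 1.35% lower on the LIFR KO array. On the gp130 KO array these shares were 0.553% and 0.468%, and between the knockouts 1.4% were lower on the gp130 KO array. At such shares, finding no gene past 2-fold says little about this or any further list. On the LIFR KO array 2 of the 25 were at least 2-fold higher and none was lower, with a median log2 ratio of 0.18. These were Dyrk3, a kinase gene, at 4.46-fold with signals of 1093, 5495 and 1886, and Bbc3, the gene of the pro-apoptotic protein PUMA, at 2.48-fold with signals of 658, 1845 and 573. On the gp130 KO array none of the 25 passed 2-fold either way and the median was -0.03. Between the knockouts 3 of the 25 were at least 2-fold lower on the gp130 KO array and none was higher, with a median of -0.21. They were Plk3 at 3.24-fold, Bbc3 at 2.80-fold and Dyrk3 at 2.53-fold. Plk3 had log2 ratios to wildtype of 0.86 on the LIFR KO and -0.84 on the gp130 KO array. Perp, the gene of a membrane protein of cell junctions, was named for the highest mean signal of the list over the 3 arrays, as was 1 gene of each further list, and had log2 ratios of 0.05 and 0.06.

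Of 19 genes of p53 itself, its family and its regulators, 18 were measured. Trp53, the gene of p53, was 2.27-fold lower on the LIFR KO array, with signals of 141, 70.3 and 102 on the wildtype, LIFR KO and gp130 KO arrays, and had a log2 ratio of -0.45 on the gp130 KO array. Ppm1d, whose phosphatase switches the p53 response off, was 2.16-fold higher on the LIFR KO array and had a log2 ratio of 0.51 on the gp130 KO array. No other of the 18 passed 2-fold in either knockout, and the medians were -0.06 and -0.09. Usp7, the gene of a protease that removes ubiquitin from Mdm2 and p53, had log2 ratios of 0.01 and 0.07.

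Of 26 FOXO target genes, 3 of the 20 measured were at least 2-fold higher on the LIFR KO array and 1 of the 22 measured on the gp130 KO array, with none 2-fold lower and medians of 0.38 and 0.33. Of all genes compared, 2.87% and 1.61% passed 2-fold upward on these arrays. Fbxo32, which encodes the ubiquitin ligase atrogin-1, had signals of 84.4, 245 and 195 and was 2.57-fold and 2.36-fold higher. Ddit4, an inhibitor of mTORC1 signalling, was 2.83-fold higher on the LIFR KO array with a log2 ratio of 0.39 on the gp130 KO array, and Irs2, an adaptor of the insulin receptor, 2.06-fold higher with 0.57. Btg1, named for its mean signal in this list and in that of the other BTG/TOB genes, had log2 ratios of 0.35 and 0.74. Of those 5 BTG/TOB genes 4 were measured and none passed 2-fold, with medians of 0.54 and 0.17.

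Genes of the cell cycle machinery were read as well. The shares of all genes past 2-fold given above are small, so a list with no gene past 2-fold says little. Of 10 CDK inhibitor and retinoblastoma family genes 7 were measured, of which Cdkn2d, the gene of the inhibitor p19, was 2.41-fold higher on the LIFR KO array with signals of 2036, 5544 and 2248, and none was 2-fold changed on the gp130 KO array. The medians were 0.07 and 0.17, and Cdkn2c, named for its mean signal, had -0.23 and 0.16. Cdkn2a, Cdkn2b and Cdkn1c, all inhibitors of cyclin-dependent kinases, did not rise well above background in any genotype. Of 12 measured genes of G1 cyclins, their kinases and E2F factors, E2f2 was 2.21-fold higher on the LIFR KO array, the others stayed under 2-fold in both knockouts, and the medians were -0.02 and -0.11, with Cdk4, named likewise, at 0.06 and 0.10. None of 22 proliferation genes, such as Mcm6 at 0.17 and 0.27, passed 2-fold, with medians of 0.09 and 0.24. Of 11 measured GADD45 partners and p38 or JNK pathway kinases, none was 2-fold higher and Map2k7 was lower, at a bound of log2 -1.14 on the LIFR KO array where its probe was not well above background. The medians were 0.05 and 0.03, with Pcna, named for its mean signal, at 0.07 and 0.25.

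**Figure D4:**
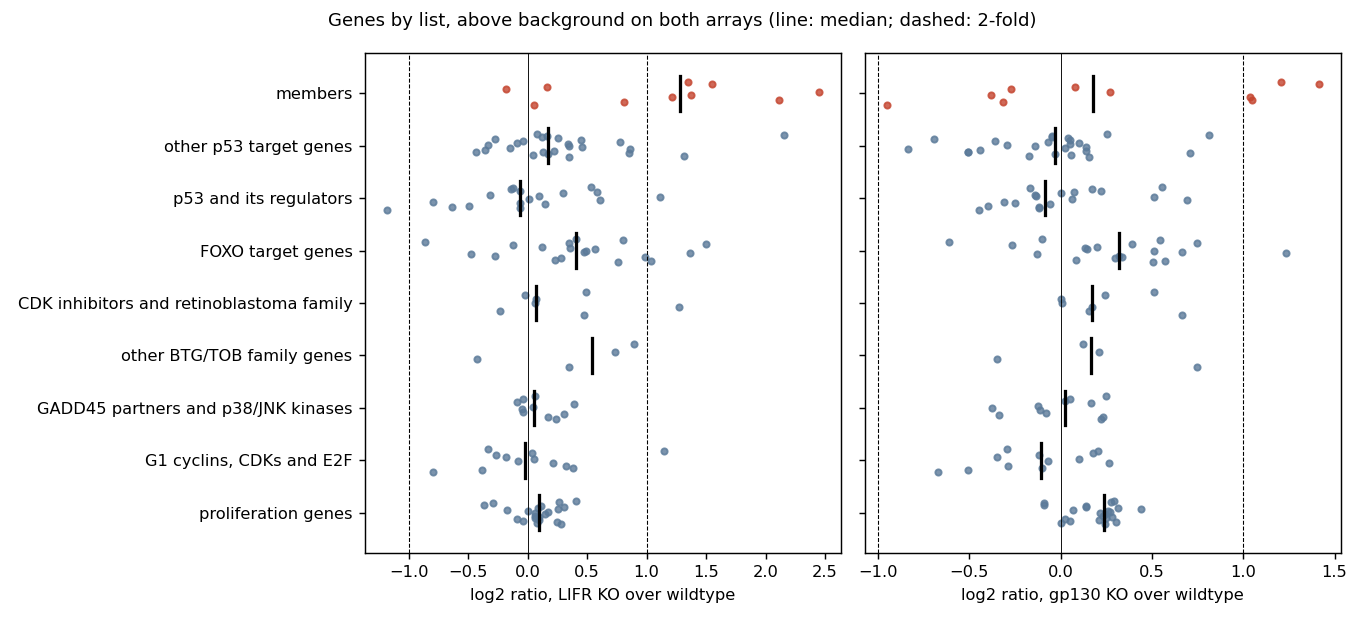
Log2 ratios of the 10 genes (members, red) and of the other lists (blue) on the LIFR KO and gp130 KO arrays over wildtype, for genes above background on both arrays of a comparison. Each point is 1 gene, the thick line is the list's median and the dashed lines mark 2-fold. The medians of the 10 genes are 1.28 and 0.17, and those of the 22 proliferation genes 0.09 and 0.24. For FOXO targets the plotted medians are 0.41 and 0.32, since genes above background on 1 array alone are left out.

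The genes whose pair of log2 ratios lay nearest to those of the 4 genes past 2-fold on both knockout arrays were sought by the straight-line distance between the pairs of ratios to wildtype. Of the 13113 genes above background on all 3 arrays, 12561 were searched, since 552 with clone or predicted gene names were left out. Nearest to Hbp1 were Rhof, Fbxo32 and Sgk2, at distances of 0.023, 0.032 and 0.050. N4bp2l1, Prss46 and Fbxo32 were nearest to Ccng2, at 0.091, 0.21 and 0.26. The list gave Arhgef17, Crybb3 and Slco4a1 for Gadd45a, at 0.080, 0.098 and 0.11, and Grhl3, Dyrk3 and Mylip for Trp53inp1, at 0.18, 0.24 and 0.24. Likeness over 3 arrays is a weak measure and says nothing of shared control.

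Markers of other cell types were read beside these results. The summed scaled signal of 12 fibroblast or feeder cell markers was 114659, 120961 and 129773 on the wildtype, LIFR KO and gp130 KO arrays, with Pdgfrb and Lum above background on none. Most of the wildtype sum came from Vim, at 73043. Col1a1 was 3.23-fold higher on the LIFR KO array and Dcn 2.08-fold higher on the gp130 KO array. Dcn was dim, at 16.5 on the wildtype and 33.6 on the gp130 KO array. No other of the 10 measured fibroblast or feeder markers passed 2-fold over wildtype, and their median log2 ratios were 0 and 0.27. Vim, named for its mean signal, had log2 ratios of 0.09 and 0.22. For the 12 epithelial markers the sums were 82199, 87003 and 85604, with Cldn4 2.20-fold higher on the LIFR KO array and Krt18, named likewise, at 0.18 and 0.10. For the 15 embryonic stem cell markers they were 3732, 3504 and 3644, with no measured gene past 2-fold and Klf4, named likewise, at 0.15 and -0.06. For 5 blood cell markers they were 1783, 1284 and 1605, again with none past 2-fold. The part of these differences in the results above was not tested, and in RNA from whole cultures a change in the share of a cell type cannot be told apart from a change in RNA per cell.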

How the data were processed

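Expression was measured with single-colour Agilent arrays, 1 for each of 3 genotypes, all from 1 scan per the file headers. The deposited intensity is Agilent's processed signal for each spot, background-subtracted and not normalised between arrays (Feature Extraction 11.0.1.1 with protocol GE1_1100_Jul11 per the file headers, 9.1 per the submitters' processing notes). The deposited flags of the software, another kind of value of 0 or 1 per the file headers, mark spots well above background and outliers. The authors' series matrix holds log2 values, a scale found by comparison with the processed signal (r = 0.995 to 0.998); its normalisation is not given in the sources used here.

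Outlier spots were left out, log2 signals of a probe's spots averaged, and each array's 75th percentile over non-control spots subtracted. Accessions were matched without versions to the RefSeq table of GRCm38.p6, which named 27234 of 39429 probes (69.1%). A gene was read from its brightest probe and compared when at least 1 of 2 arrays was well above background, with the lowest probe mean above background as floor for the other (a probe counted as such when 50% or more of its spots did). Genes past 2-fold were counted. Python 3.11.15 and limma 3.58.1 were used. The code for ratios and calls was run on simulated data with changes far past the threshold, which checks that code only.

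Groups came from the labels. The members, gene lists, motifs and alternatives were chosen with earlier results of these data known. Named are the members, up to 4 genes per list past 2-fold in either knockout and above background on both arrays, the gene of each list with the highest mean log2 signal over the 3 arrays, the targeted genes, and the 3 genes nearest in ratio to members past 2-fold in both knockouts. Undetected markers and list genes, Trp53inp2, Map2k7, Plk3 and Pou5f1 were named after their values were seen. With 1 array per genotype, precision is limited by that number.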

Additional observations from a re-analysis of the deposited data

Results flagged for a closer look

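Btg2 and Gadd45b lay on opposite sides of wildtype in the 2 knockouts by more than the scatter of repeated spots. Btg2 had log2 ratios of 0.81 on the LIFR KO and -0.31 on the gp130 KO array, and Gadd45b 1.37 and -0.38. The difference between the knockouts was not tested, since each genotype has 1 array, and the ratios below 0 are within 2 scanner errors of 0. With the 2 normexp fits the Btg2 ratio on the gp130 KO array was -0.11 and -0.12, inside the spot scatter of 0.15, so Btg2 no longer stood out there.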

How the results depend on the processing

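No paired analysis was possible because each group has 1 array and no result comes from a test. Of 11 alternatives, 4 (both arrays above background, no filter on dim probes, the single-spot floor, outlier spots kept) could not change a value of the 10 genes, whose probes in use were all above background with no outlier spots. Under the other 7, 53 of 63 counts and medians of the 10 genes stayed within 1.5 times (counts) or within the scatter of spots (medians), 10 moved further, and no ratio past 2-fold changed sign. All 10 moved under the 2 normexp fits or the median over a gene's probes. The 53 include counts that held no gene under any setting. They also include settings that shift all ratios of a comparison nearly alike, so this share overstates how stable the results are. With normexp the median log2 ratio was 0.97 for LIFR KO over wildtype and -0.81 for gp130 KO over LIFR KO, and 1 gene, Hbp1, was 2-fold higher on the gp130 KO array. With normexp fitted without the stray signal these were 1.09, -0.38 and 1 gene, and 2 genes were lower on the gp130 KO than on the LIFR KO array. With the median over a gene's probes the medians were 1.096 and -0.34, and 2 genes were higher on the gp130 KO array. The normexp offset compresses ratios of dim probes by construction, but with the fit on all spots the dim Btg2 probe rose from 0.81 to 1.51 on the LIFR KO array. That fit includes the stray signal of the LIFR KO array. It put 22.8% of 14545 genes at least 2-fold higher there, against 0.783% of 14427 without the stray signal. Between the knockouts it put 22.1% of 14760 genes at least 2-fold lower on the gp130 KO array, against 0.526% of 14642 without the stray signal. The ratios of that fit that involve the LIFR KO array are therefore a weak check. In the whole array the count past 2-fold higher on the gp130 KO array was 240, 146 with the floor at the lowest single spot, and 10 and 9 with the 2 normexp fits; for the LIFR KO array it was 417, and 3314 and 113 with the 2 normexp fits. Naming probes by a gene name column was not run, as no such column was used here.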
